A study of Homo sapiens with 4 samples.

Results

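The genes described here encode the translation initiation and elongation factors of RKO cells, a human colorectal cancer cell line. They were chosen by name: every gene of the deposited count table whose symbol begins with EIF1 to EIF6, EEF1 or EEF2, apart from the eIF2 kinases (symbols beginning EIF2AK) and read-through genes with a hyphen in the name. This rule found 63 of the 15357 genes listed, and it used no measured value. RNA-seq of polyadenylated RNA covered 4 samples, all RKO cells infected with lentivirus to give stable expression of a short hairpin RNA. The vector group held 2 samples with control shRNA, and the shCHD7_2 group held 2 samples with a hairpin against CHD7, a chromatin remodeller of the chromodomain helicase family. The sequenced samples carried only this hairpin against CHD7, so the loss of CHD7 and other effects of the hairpin cannot be told apart. The comparison asked which translation factors were expressed at another level after CHD7 knockdown.

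Translation begins when eIF2, loaded with GTP and the initiator tRNA, joins the small ribosomal subunit together with eIF1, eIF1A, eIF3 and eIF5. The mRNA is brought in by eIF4E, which binds the cap, the helicase eIF4A and the scaffold eIF4G, and eIF2B recharges eIF2 with GTP after each round. Elongation then depends on eEF1A, which delivers aminoacyl-tRNAs, on the eEF1B subunits that recharge it, and on eEF2, which drives translocation. Many mRNAs of this machinery begin with a 5′ terminal oligopyrimidine tract (TOP), through which mTOR and LARP1 control their translation.

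The deposited counts summed to between 15734679 and 16068650 reads per sample. CHD7 itself had 85.4 and 91.0 CPM (counts scaled to a common library size by TMM) in the vector samples and 55.5 and 50.1 CPM in the shCHD7_2 samples. Both knockdown samples lay below both vector samples, with a log2 fold change of -0.74 (SE 0.088, adjusted p = 4.15e-06, quasi-likelihood test in edgeR, adjusted by Benjamini-Hochberg over all genes tested). Of 9 epithelial and colon markers, 7 are listed and EPCAM, KRT8, KRT18 and CDX2 were at 1 FPKM (fragments scaled for transcript length and library size) or more, while CDH1 and KRT20 were at or near 0. Their summed level was 75.3 to 81.2 FPKM in the vector samples and 81.6 to 90.3 FPKM in the shCHD7_2 samples. The listed fibroblast markers (2 of 6) summed to at most 0.1 FPKM and the endothelial markers (2 of 4) to at most 0.03 FPKM in each sample. Of 5 immune markers, LYZ was below 1 FPKM and CD68, which lies 461 bases downstream of EIF4A1 on the same strand of chromosome 17, had 529 and 495 FPKM in the vector samples and 602 and 611 FPKM in the shCHD7_2 samples. CD68 did not pass the test (adjusted p = 0.0624, edgeR's quasi-likelihood test), and the part of these shifts in the results was not tested. In bulk RNA, a lower share of cells of a kind and less RNA per cell cannot be told apart.

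Between 4.14% and 4.35% of all counts in a sample fell on the 63 factors, and EEF1A1 alone took 1.76% to 1.88%. The filter on low counts kept 61 of them. EIF4EBP3, a small repressor of eIF4E, had 2 counts in a vector sample and 0 in the others, and EEF1A2, the eEF1A of muscle and neurons, had 1 and 1 counts in the vector samples and 2 and 0 in the shCHD7_2 samples, so neither was tested. Among those tested, the mean level per length ran from 0.448 FPKM for EIF2S3B to 5461 FPKM for EEF1A1, as the plot of levels by role shows. After EEF1A1, the elongation factors EEF1G (2369 FPKM, mean over all samples), EEF2 (1805 FPKM) and EEF1B2 (1194 FPKM) stood highest. EIF3H (814 FPKM) and EIF3E (813 FPKM) led the eIF3 subunits and EIF4A1 (801 FPKM) the eIF4A group. The eIF2B subunits, by contrast, ranged from 9.28 to 37.9 FPKM.

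**Figure D1:**
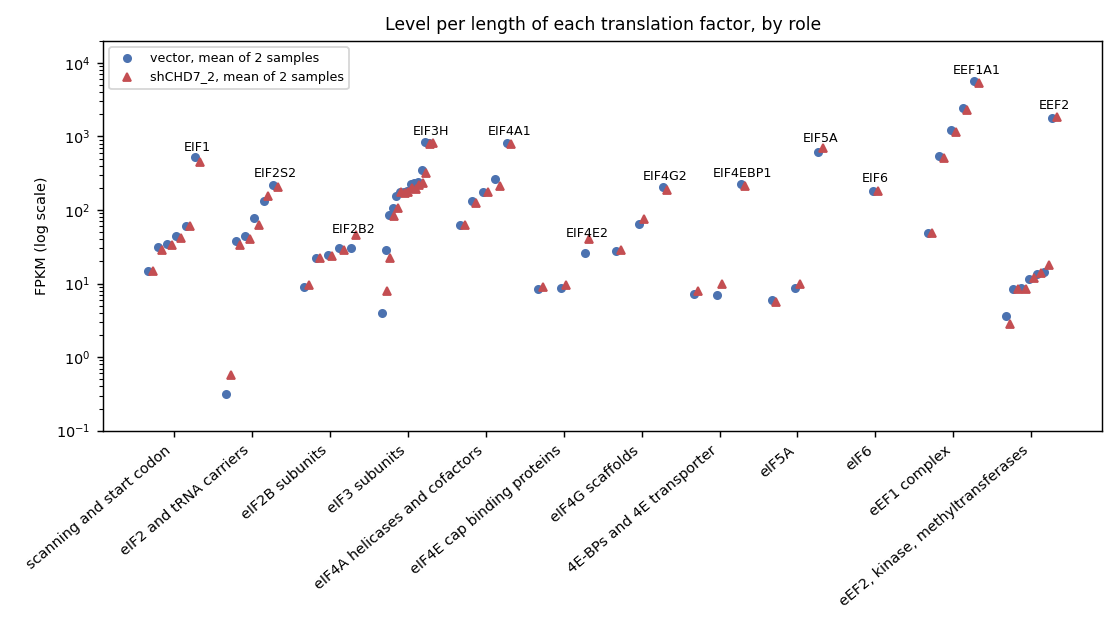
Level per length (FPKM, log axis) of the factors with a mean FPKM above 0.1, by role, as the mean of 2 vector samples (circles) and of 2 shCHD7_2 samples (triangles), ordered by level within a role. EEF1A1 stands highest at 5605 and 5316 FPKM and EIF2S3B lowest at 0.320 and 0.575 FPKM, and the symbols of most genes lie close together.

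After CHD7 knockdown, 8 translation factors passed the test in edgeR with TMM scaling, each with a change of less than 1.5-fold. EIF2B2, EIF4E2 and EIF4EBP2 rose, and EIF4B, EIF2A, EIF3J, EIF3D and EIF1 fell, at an adjusted p under 0.05. These 8 factors are 13.1% of those tested, beside 11.5% of all 11955 genes tested. The 3 that rose are 4.92% of the factors, beside 4.94% of all genes, and the 5 that fell are 8.2%, beside 6.54% of all genes. With the libraries scaled by their totals in place of TMM, 5 factors passed as higher and 5 as lower, each 8.2% of the factors, beside 7.34% and 5.09% of all genes. At the fold change of 1.5 used in the study together with the adjusted p, 0 factors passed, beside 2.88% of all genes. The count was also 0 at an unadjusted p under 0.05 with that fold in edgeR, beside 475 of the 11955 genes tested, and 0 in DESeq2. It was 1 with library totals (EIF2B2) and 2 in limma on log2(FPKM + 1) (EIF2B2 and EIF4E2). In the fits that each left out a sample, the log2 fold change of EIF2B2 ran from 0.49 to 0.65, on either side of 1.5-fold. That of EIF3CL, a copy of EIF3C described below, ran from -2.6 to 1.69 and was past 1.5-fold in each. For DESeq2, library totals and limma the share of all genes past that fold was not counted. At an unadjusted p under 0.05 without a fold, 17 factors (27.9%) passed in edgeR, beside 25.4% of all genes. Without the filter on low counts, over 15044 genes, no factor passed in edgeR and 197 genes passed in all.

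**Figure D2:**
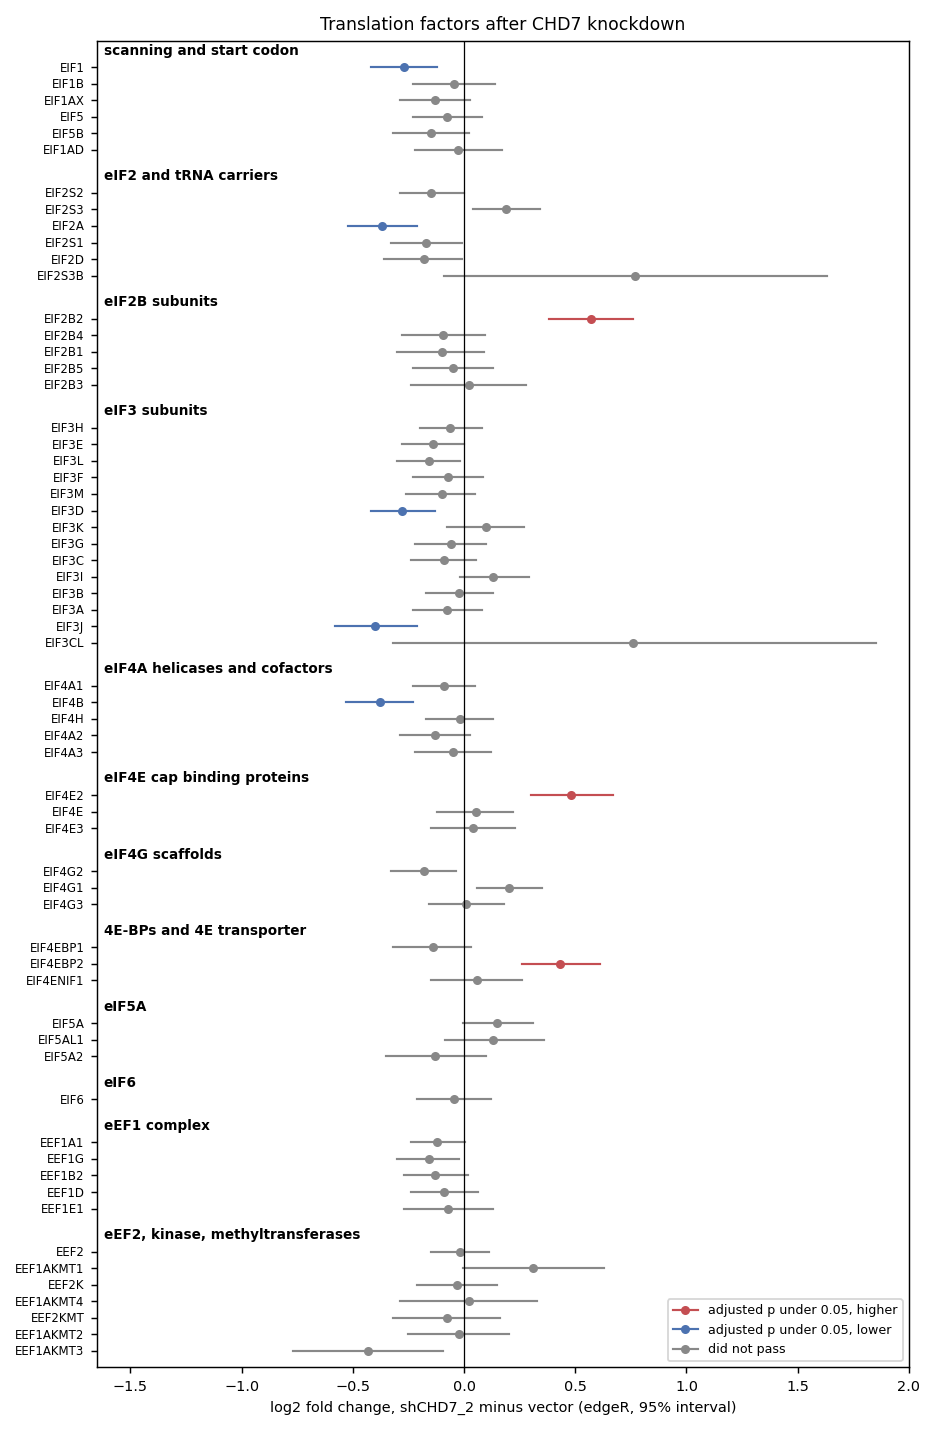
Log2 fold change (shCHD7_2 minus vector) of the 61 tested factors by role, with 95% intervals from edgeR. Those past the adjusted p of 0.05 are in red (3 higher) and blue (5 lower), and 43 of the 61 points lie left of 0.

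Most of the small differences pointed the same way. Of the 61 factors, 43 (70.5%) had a log2 fold change below 0, against 49.9% of all genes tested, and the median was -0.071, against 0.00056 for all genes. Scaling by library totals put the medians at -0.027 for the factors and 0.045 for all genes, with 37 factors below 0. Both shCHD7_2 samples lay below both vector samples for 27 factors, beside 27.3% of all genes that did so, and above both for 8 factors, beside 26.4% of all genes. In percent of the factors these are 44.3% and 13.1%, and for either direction 57.4% beside 53.7% of all genes. With 2 samples in each group the smallest two-sided p that a permutation test allows is 0.333, and edgeR's model across all genes was used instead. The labels do not say whether the samples of a group came from separate cultures, so these p-values measure only the spread between these samples.

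The annotated transcription starts of the 8 factors that passed are given here because pyrimidines at the start mark the TOP mRNAs of this machinery. Each window, from RefSeq on GRCh38.p14, holds 15 bases before the annotated start and 15 bases from it, on the strand of the gene. Capitals mark the pyrimidine tract where the base at the start is C and at least 4 further pyrimidines follow.
EIF4B: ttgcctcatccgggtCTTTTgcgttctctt
EIF2A: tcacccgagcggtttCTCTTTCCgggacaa
EIF3D: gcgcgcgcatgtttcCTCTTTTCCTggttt
EIF3J: cacctccgccgtgctaactcctcgctagct
EIF1: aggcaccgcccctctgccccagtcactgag
EIF2B2: gacctcgcccgccccggaagtgcaaactgt
EIF4E2: ggtggagcggaagtcactccctgaggcagt
EIF4EBP2: ctcccgccttcgcccgcttccggtcgtcgt
The windows lie at chr12:53006441-53006470 (+) for EIF4B, chr3:150546772-150546801 (+) for EIF2A, chr22:36529152-36529181 (-) for EIF3D and chr15:44537132-44537161 (+) for EIF3J. Those of the remaining genes lie at chr17:41688870-41688899 (+) for EIF1, chr14:75002906-75002935 (+) for EIF2B2, chr2:232550674-232550703 (+) for EIF4E2 and chr10:70404130-70404159 (+) for EIF4EBP2. Pyrimidine tracts stood at the starts of EIF4B, EIF2A and EIF3D, which fell, and not at those of EIF3J and EIF1, which fell too. The starts of the 3 factors that rose had no such tract, and neither did another annotated start of EIF4E2, at chr2:232551052-232551081 (+).

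EIF2B2, the beta subunit of the exchange factor eIF2B, showed the largest fold among the factors that passed. It had 44.4 and 39.7 CPM in the vector samples and 60 and 64.7 CPM in the shCHD7_2 samples, and the groups did not overlap. The rise was 1.48-fold (95% interval 1.3 to 1.69, log2 fold change 0.57, SE 0.092, adjusted p = 1.95e-04, edgeR's quasi-likelihood test). In GENCODE 29 (GRCh38) the gene spans chromosome 14 from 75002911 to 75012366, and exons of AL049780.1 and AL049780.3 on the other strand, which have no entry in the count table, overlap its exons. None of the other 4 eIF2B subunits passed: EIF2B4 had a log2 fold change of -0.095, EIF2B1 of -0.10, EIF2B5 of -0.049 and EIF2B3 of 0.022. Relative to the mean FPKM of those 4 subunits, EIF2B2 stood at 1.52 and 1.28 in the vector samples and at 2.16 and 2.21 in the shCHD7_2 samples. Both shCHD7_2 samples thus stood above both vector samples in this ratio. EIF2B5, which carries the catalytic site, had 57.9 and 61.9 CPM in the vector samples and 57.7 and 58.0 CPM in the shCHD7_2 samples.

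EIF4E2 encodes 4EHP, a cap binding protein that does not bind eIF4G and represses the mRNAs it holds. Its level was 39.2 and 36.9 CPM in the vector samples and 54.8 and 51.5 CPM in the shCHD7_2 samples, with no overlap. It rose 1.40-fold (95% interval 1.23 to 1.59, log2 fold change 0.48, SE 0.091, adjusted p = 9.09e-04, edgeR's quasi-likelihood test). In FPKM, which also divides by the estimated transcript length, the values were 26.8 and 24.9 against 42.0 and 38.4, and limma on log2(FPKM + 1) gave a log2 difference of 0.62 (adjusted p = 2.72e-04). The gene lies on chromosome 2 from 232550052 to 232583644, and exons of TIGD1, and of AC073254.1 and MIR5001 without an entry in the table, overlap its exons on the other strand. Whether the counting used strand is not given in the sources used here, so reads of such a pair cannot be told apart. EIF4E, the cap binding protein that starts translation, had 101 and 102 CPM in the vector samples and 110 and 101 CPM in the shCHD7_2 samples, and its log2 fold change was 0.054 (adjusted p = 0.731, edgeR). EIF4E3, a further member of the family, had 40.5 CPM in both vector samples and 43.7 and 39.5 CPM in the shCHD7_2 samples. Of the summed FPKM of these 3 genes, EIF4E2 took 61.0% and 58.8% in the vector samples and 68.3% and 68.9% in the shCHD7_2 samples, and EIF4E took 19.9% and 20.9% against 16.1% and 16.2%. These shares depend on the estimated transcript lengths, since by CPM EIF4E stood above EIF4E2 in each sample.

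EIF4EBP2 belongs to the 4E-BPs, which bind eIF4E and keep it from eIF4G until mTOR phosphorylates them. It had 52.3 and 54.1 CPM in the vector samples and 73.2 and 70.7 CPM in the shCHD7_2 samples, again without overlap. The gene rose 1.35-fold (95% interval 1.2 to 1.53, log2 fold change 0.43, SE 0.086, adjusted p = 0.00145, edgeR's quasi-likelihood test), and it lies on chromosome 10 from 70404379 to 70428618. EIF4EBP1 was far more abundant per length, with 236 and 213 FPKM in the vector samples and 196 and 222 FPKM in the shCHD7_2 samples, which overlapped (log2 fold change -0.14, adjusted p = 0.3, edgeR). The share of EIF4EBP2 in the summed FPKM of the 4E-BPs was small, at 2.87% and 3.27% in the vector samples and 4.91% and 4.19% in the shCHD7_2 samples. EIF4EBP3 was hardly detected, as given above. The read-through gene that joins it to ANKHD1, outside the rule, had 1143 and 1182 counts in the vector samples and 1135 and 1256 in the shCHD7_2 samples. EIF4ENIF1, which carries eIF4E into the nucleus, had 31.4 and 29.6 CPM against 30.1 and 33.5 CPM.

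**Figure D3:**
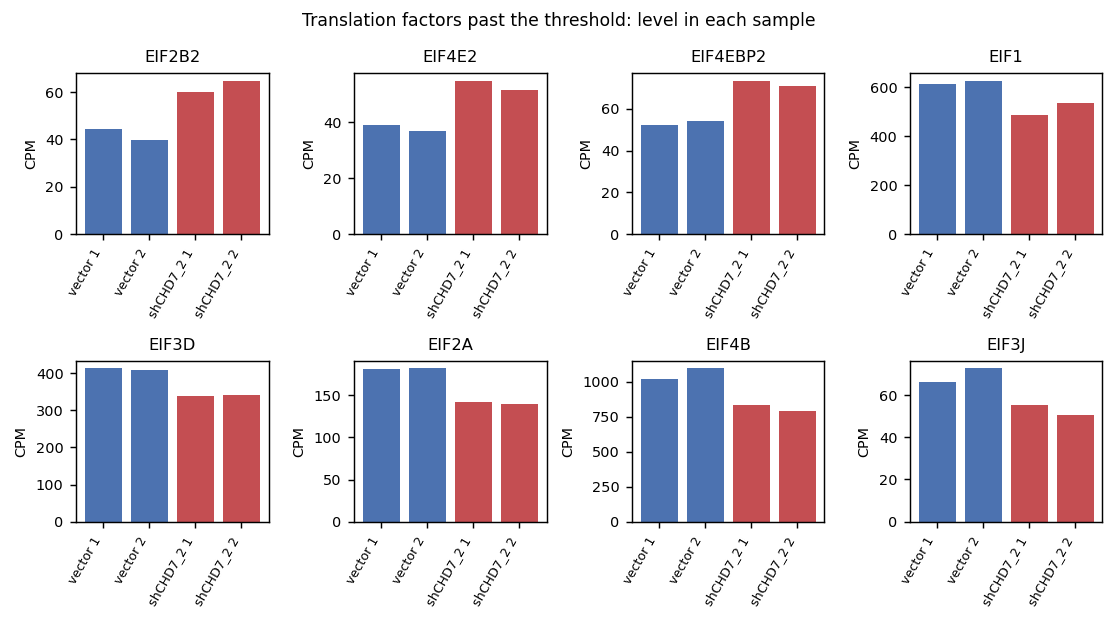
CPM in each sample (bars, axes from 0) of the 8 factors with an adjusted p under 0.05, ordered from the largest rise to the largest fall, with the vector samples in blue and the shCHD7_2 samples in red. In each of the 8 panels both red bars lie on the same side of both blue bars.

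Among the helicases and their cofactors, EIF4B fell. It encodes the RNA binding cofactor that raises the activity of eIF4A, and its mRNA is a known TOP mRNA. EIF4B had 1018 and 1097 CPM in the vector samples and 837 and 788 CPM in the shCHD7_2 samples, so the groups did not overlap. Expression was 0.768-fold that of the vector group (95% interval 0.694 to 0.851, log2 fold change -0.38, SE 0.071, adjusted p = 8.77e-04, edgeR's quasi-likelihood test). Without vector replicate 2, the higher of the vector samples, the log2 fold change was -0.33 and no longer passed (adjusted p = 0.0714, edgeR). EIF4B lies on chromosome 12 from 53006158 to 53042209, where exons of AC068888.1 on the other strand, without an entry in the table, overlap its exons. The other 4 genes of the group also had log2 fold changes below 0, of which none passed, and that of EIF4H was above 0 with library totals. EIF4A1, the main helicase, had 1402 and 1433 CPM in the vector samples and 1302 and 1365 CPM in the shCHD7_2 samples (log2 fold change -0.089, adjusted p = 0.445, edgeR). Its paralogue EIF4A2 had 220.0 and 242 CPM against 215 and 207 CPM, and EIF4A3, a subunit of the exon junction complex, had 99.5 and 98.9 CPM against 93.2 and 98.8 CPM. EIF4A2 made up 13.5% and 14.4% of the summed FPKM of EIF4A1 and EIF4A2 in the vector samples and 14.0% and 13.1% in the shCHD7_2 samples, which overlapped.

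The eIF4G scaffolds did not pass and pointed in different directions. EIF4G1, the main scaffold, had 347 and 341 CPM in the vector samples and 403 and 390.0 CPM in the shCHD7_2 samples (log2 fold change 0.20, 95% interval 0.058 to 0.35, adjusted p = 0.0649, edgeR). It passed in limma on log2(FPKM + 1) (log2 difference 0.24, adjusted p = 0.0371) and in edgeR with library totals (0.25, adjusted p = 0.0226). EIF4G2, also called DAP5, lacks the eIF4E binding site, and it had 759 and 813 CPM in the vector samples and 708 and 677 CPM in the shCHD7_2 samples (log2 fold change -0.18, adjusted p = 0.101, edgeR). EIF4G3 had 158 and 179 CPM against 175 and 165 CPM, a difference within the spread of the samples.

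Of the 14 tested genes of eIF3, the largest initiation factor, EIF3J and EIF3D fell and none rose. The 14 genes include EIF3CL, a copy of EIF3C with an uncertain level, described below, whose log2 fold change was above 0. In all, 11 of the 14 had a log2 fold change below 0, or 10 with library totals, where EIF3B moved above 0, and the median was -0.074. EIF3J encodes a loosely bound subunit that sits at the decoding centre of the small ribosomal subunit. It had 66.2 and 72.7 CPM in the vector samples and 55.1 and 50.3 CPM in the shCHD7_2 samples, with no overlap. The log2 fold change of EIF3J was -0.40 (SE 0.090, 0.759-fold, adjusted p = 0.00463, edgeR's quasi-likelihood test), and without vector replicate 2 it was -0.33 and did not pass (adjusted p = 0.126, edgeR). The gene lies on chromosome 15 from 44537057 to 44563029, and exons of SPG11 on the other strand overlap its exons.

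EIF3D encodes the subunit that can itself bind the cap of certain mRNAs. Its counts were 6409 and 6463 in the vector samples and 5440 and 5422 in the shCHD7_2 samples, a narrow spread within each group. EIF3D had a log2 fold change of -0.28 (SE 0.071, 0.826-fold, adjusted p = 0.0118, edgeR's quasi-likelihood test). Leaving out vector replicate 1 or vector replicate 2 gave -0.27 and -0.28, close to the value with all samples. The call was lost in both fits, where 1 vector sample was left and the SE was 0.12. In the fit with the replicate block, EIF3D had an adjusted p of 0.0947. The gene lies on chromosome 22 from 36510850 to 36529436. EIF3E, with EIF3H the highest of the subunits per length, was at 1127 and 1174 CPM against 1059 and 1029 CPM (log2 fold change -0.14, adjusted p = 0.198, edgeR). EIF3H was at 799 and 841 FPKM in the vector samples and 820.0 and 797 FPKM in the shCHD7_2 samples. Of the core subunits that hold the complex together, EIF3A, EIF3B and EIF3C had log2 fold changes of -0.076, -0.022 and -0.092. The remaining subunits ran from -0.16 for EIF3L, through -0.10 for EIF3M, -0.071 for EIF3F and -0.058 for EIF3G, to 0.10 for EIF3K and 0.13 for EIF3I. For EIF3I both shCHD7_2 samples, at 297 and 309 CPM, lay above both vector samples, at 283 and 269 CPM (adjusted p = 0.261, edgeR).

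EIF3CL, a near-identical copy of EIF3C, varied most among the samples. It had 154 and 143 counts in the vector samples but 25 and 490 in the shCHD7_2 samples, which lay on either side of the vector group. In percent of the reads given to EIF3C and EIF3CL together, this was 1.9% and 1.7% against 0.31% and 6.0%, and its counts were not whole numbers in any of the 4 samples. Reads that match both copies are divided between them by the counting program, so the level of EIF3CL is uncertain. EIF3CL did not pass with all samples (adjusted p = 0.386, edgeR) but passed in each of the 4 fits that left out a sample, in opposite directions. Its log2 fold change was -2.60 without shCHD7_2 replicate 2, 1.69 without shCHD7_2 replicate 1, and 0.83 and 0.70 without vector replicate 1 and 2. The sum of the pair was 8181 and 8583 counts against 8112 and 8192 counts, with a log2 fold change of -0.071 (adjusted p = 0.572, edgeR). EIF5AL1, a copy of EIF5A, took 4.1% to 4.4% of the reads of its pair in each sample, and EIF2S3B took 0.14% to 0.27% of the reads shared with EIF2S3. EIF2S3B had 10 and 10 counts against 14 and 21, and its log2 fold change of 0.77 had a 95% interval from -0.090 to 1.63. Of the 63 factors, 50 had whole counts in each sample, the 8 that passed among them.

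**Figure D4:**
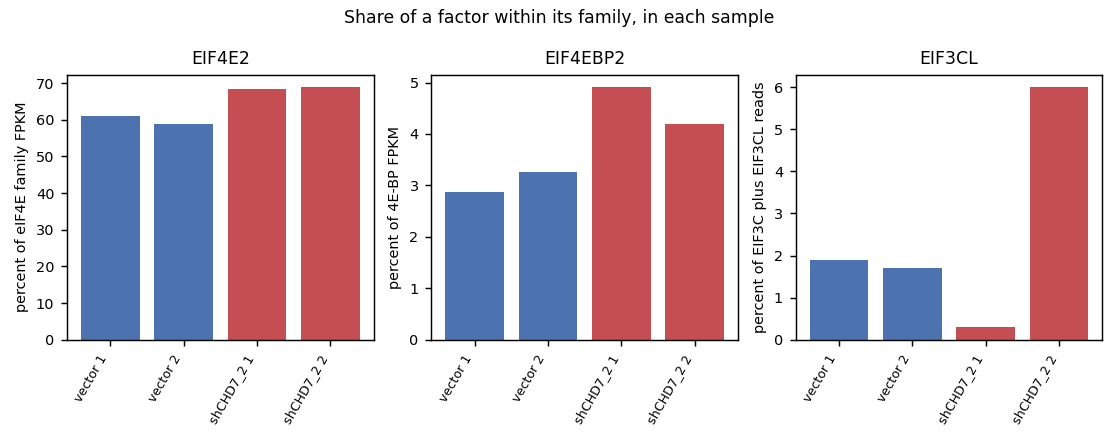
Share in each sample (bars, axes from 0) of EIF4E2 in the summed FPKM of EIF4E, EIF4E2 and EIF4E3, of EIF4EBP2 in that of the 4E-BPs, and of EIF3CL in the reads of EIF3C and EIF3CL. EIF4E2 and EIF4EBP2 take larger shares in both shCHD7_2 samples (red) than in both vector samples (blue), while EIF3CL is at 0.31% and 6.0% in the shCHD7_2 samples.

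Among the subunits of eIF2 and the factors that can carry a tRNA in its place, EIF2A fell. EIF2A, which is not a subunit of eIF2, binds initiator tRNA without GTP and has been linked to starts at other codons than AUG. It had 181 and 182 CPM in the vector samples and 142 and 139 CPM in the shCHD7_2 samples, with no overlap. This was 0.775-fold (95% interval 0.696 to 0.864, log2 fold change -0.37, SE 0.075, adjusted p = 0.00214, edgeR's quasi-likelihood test). The gene lies on chromosome 3 from 150546678 to 150584242, and exons of SERP1 on the other strand overlap its exons. The 3 subunits of eIF2 did not pass. EIF2S1 (the alpha subunit) and EIF2S2 (beta) had log2 fold changes of -0.17 and -0.15, whereas EIF2S3, the gamma subunit that binds GTP and the tRNA, had 448 and 435 CPM in the vector samples and 521 and 486 CPM in the shCHD7_2 samples (0.19, adjusted p = 0.0926, edgeR). EIF2S3 passed with library totals and without shCHD7_2 replicate 2. EIF2D, another tRNA carrier, had a log2 fold change of -0.18 (adjusted p = 0.168, edgeR).

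EIF1, which keeps the scanning ribosome from starting at poor sites, fell, with the smallest change among the 8 factors that passed. It had 611 and 625 CPM in the vector samples and 487 and 536 CPM in the shCHD7_2 samples. The groups did not overlap. EIF1 had a log2 fold change of -0.27 (SE 0.072, 0.828-fold, adjusted p = 0.0152, edgeR's quasi-likelihood test), and the call was lost without vector replicate 1 (adjusted p = 0.112), vector replicate 2 (0.232) or shCHD7_2 replicate 1 (0.0541), with the replicate block (0.0716), and in limma on log2(FPKM + 1) (0.0537). It lies on chromosome 17 from 41688885 to 41692668. Its paralogue EIF1B had 49.6 and 53.9 CPM against 50 and 50.3 CPM, and made up 10.0% and 10.6% of the summed FPKM of the pair in the vector samples and 12.3% and 11.4% in the shCHD7_2 samples. The remaining genes grouped with EIF1, namely EIF1AX, EIF5, EIF5B and EIF1AD, had log2 fold changes from -0.15 to -0.029, and none passed. EIF1AD is listed here for its symbol, not for a known part in start codon selection. With library totals, 5 of the 6 genes of this group were below 0 and EIF1AD above.

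No elongation factor passed the test. EEF1A1, the most abundant factor, had 19086 and 19064 CPM in the vector samples and 17332 and 17786 CPM in the shCHD7_2 samples, which did not overlap. Its log2 fold change of -0.12 had a 95% interval from -0.24 to 0.0021 (adjusted p = 0.206, edgeR's quasi-likelihood test). The eEF1B subunits, which exchange the GDP of eEF1A, also lay lower without passing. EEF1G had 3352 and 3543 CPM against 2968 and 3201 CPM (-0.16, adjusted p = 0.131, edgeR), and EEF1B2 and EEF1D had log2 fold changes of -0.13 and -0.091. All 5 tested genes grouped under the eEF1 complex, EEF1E1 among them, were below 0 under TMM, DESeq2's size factors and library totals. EEF2 had 5566 and 5330 CPM in the vector samples and 5247 and 5506 CPM in the shCHD7_2 samples, which overlapped (log2 fold change -0.019, 95% interval -0.15 to 0.11, and 0.025 with library totals). EEF2K, the kinase that inhibits eEF2, had a log2 fold change of -0.031 (95% interval -0.21 to 0.15). Of the methyltransferases of eEF1A, EEF1AKMT3 (-0.43, adjusted p = 0.0931, edgeR) and EEF1AKMT1 (0.31, adjusted p = 0.206, edgeR) lay furthest from 0, at 109 to 219 counts in a sample. EEF1AKMT2 and EEF1AKMT4 were at -0.025 and 0.020, EEF2KMT, which methylates eEF2, at -0.079, and EEF1E1, an auxiliary protein of the aminoacyl-tRNA synthetase complex, at -0.072.

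eIF5A, which helps the ribosome past stretches such as runs of proline and carries the modified residue hypusine, did not pass either. EIF5A had 781 and 680.0 CPM in the vector samples and 778 and 848 CPM in the shCHD7_2 samples, which overlapped (log2 fold change 0.15, adjusted p = 0.210, edgeR). EIF5A2, its paralogue, had 31.8 and 33.6 CPM against 33.5 and 26.4 CPM, and made up 0.685% to 1.08% of the summed FPKM of both genes in the samples. EIF6, which keeps free large ribosomal subunits from joining small ones, had 191 and 172 CPM against 166 and 186 CPM (log2 fold change -0.045, adjusted p = 0.780, edgeR).

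The starts were compared over all factors found in the RefSeq table of starts on GRCh38.p14. A start was counted as a pyrimidine start by the rule given above, on the strand of the gene, for any annotated start of a gene. Of the 63 factors, 50 have a start in the table and 13 of these 50 (26.0%) have a pyrimidine start, against 7.58% of 9457 tested genes and 4.07% of the 35116 starts in the table. All 13 were tested, and 10 of them had a log2 fold change below 0, or 9 with library totals, where EEF2 moved above 0. Their median was -0.12, and 3 of them passed as lower and 0 as higher. Of the 36 tested factors with other starts, 23 were below 0, the median was -0.038, and 2 passed as lower and 3 as higher. With library totals 18 of these 36 were below 0.

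Over all tested genes, the 717 with a pyrimidine start had a median log2 fold change of -0.039 and 56.9% were below 0, against 0.0041 and 49.1% for the 8740 without. Of the 717, 9.07% passed as lower and 3.91% as higher, and of the 8740 without, 6.16% and 5.05%. The factors with a pyrimidine start did not all move alike, as the comparison of the start classes shows. EIF4B, EEF2 and EEF1A1 are all known TOP mRNAs. EIF4B fell (log2 fold change -0.38), while EEF1A1 (-0.12) and EEF2 (-0.019) did not pass. For EEF1A1, too, both shCHD7_2 samples lay below both vector samples. The genes were not tested against each other. The starts of EEF2 and EEF1A1 are shown for comparison with that of EIF4B, given above, in the same form.
EEF2: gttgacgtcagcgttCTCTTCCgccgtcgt
EEF1A1: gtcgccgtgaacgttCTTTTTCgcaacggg
The window of EEF2 lies at chr19:3985449-3985478 (-) and that of EEF1A1 at chr6:73521018-73521047 (-). EIF2S3 and EIF2S3B had the same tract of 7 pyrimidines, at the annotated start of EIF2S3 and at 1 of the 2 annotated starts of EIF2S3B, and both had log2 fold changes above 0, as did EIF3K (0.10). Of the 9 factors known from general knowledge as TOP mRNAs, 9 were below 0 (8 with library totals), the median was -0.12, and EIF4B alone passed. Among these 9, EEF1G had no tract at its annotated start, and EIF3H, EIF3E and EEF1D had no start among those compared. The start classes are thus not the same as TOP and other mRNAs. A tract at an annotated start is a description of the sequence and says nothing of its use in these cells.

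**Figure D5:**
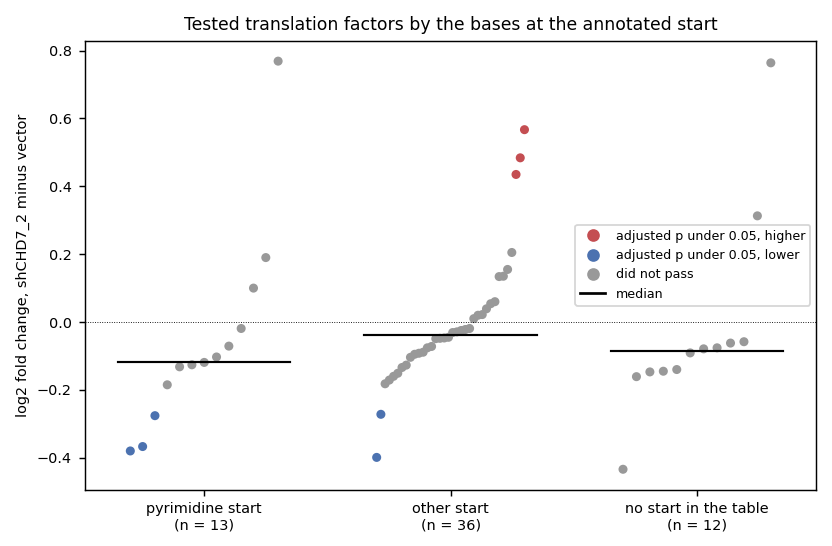
Log2 fold change (shCHD7_2 minus vector) of the tested factors by the class of their annotated start, each point a gene, ordered by value, with the median of each class as a line. The 13 factors with a pyrimidine start have a median of -0.12 and 3 blue points (passed as lower), the 36 with other starts a median of -0.038 with 3 red points (passed as higher) and 2 blue points.

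Genes that act on these factors were followed in 7 lists of 56 genes, all of which were tested. Of these, 5 passed at an adjusted p under 0.05, 1 higher and 4 lower, beside the 11.5% of all genes given above, and the median log2 fold change was -0.010. Of the 10 genes that signal to eIF4E, MKNK2 rose. It encodes a kinase that phosphorylates eIF4E, and it had 85.1 and 78.2 CPM in the vector samples and 104 and 115 CPM in the shCHD7_2 samples (log2 fold change 0.42, SE 0.086, adjusted p = 0.00179, edgeR's quasi-likelihood test). MTOR (0.028), its partner RPTOR (-0.029) and LARP1 (0.15) did not pass, nor did GIGYF2 (0.020), the partner of 4EHP. MKNK2 lost its call without vector replicate 2 (adjusted p = 0.0747, edgeR).

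Of the 7 kinases and phosphatase subunits that act on the alpha subunit of eIF2, PPP1R15A fell. PPP1R15A, also called GADD34, guides a phosphatase to eIF2 alpha. Its level was 577 and 595 CPM in the vector samples and 485 and 487 CPM in the shCHD7_2 samples (log2 fold change -0.27, adjusted p = 0.0124, edgeR). The kinase EIF2AK2, known as PKR, had a log2 fold change of -0.24 and did not pass (adjusted p = 0.0668, edgeR). In the list of other initiation and recycling factors, 2 of 9 fell: DENR, which acts in reinitiation and recycling, with 109 and 108 CPM against 89.2 and 85.4 CPM (-0.31, adjusted p = 0.0141, edgeR), and BZW2, a relative of eIF5, with 144 and 148 CPM against 115 and 111 CPM (-0.37, adjusted p = 0.00271, edgeR). BZW1, the paralogue of BZW2, had a log2 fold change of 0.055. PPP1R15A and DENR lost their calls without either vector sample and with the replicate block, DENR also without shCHD7_2 replicate 2, and BZW2 without vector replicate 2, with adjusted p from 0.0516 to 0.252 in these edgeR fits.

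DHPS, which makes hypusine on eIF5A, was the only 1 of 9 genes of hypusine and diphthamide synthesis that passed. It had 48.4 and 44.7 CPM in the vector samples and 35.5 and 40.4 CPM in the shCHD7_2 samples (log2 fold change -0.30, adjusted p = 0.0464, edgeR). Exons of WDR83 on the other strand, and of AC010422.8 on the same strand without an entry in the table, overlap those of DHPS. DHPS lost its call in 10 of 14 alternatives, among them DESeq2 (adjusted p = 0.176). None of the 6 poly(A) binding proteins and partners, the 5 termination and rescue factors or the 10 selenocysteine and mitochondrial factors passed. PABPC1, the main cytoplasmic poly(A) binding protein and itself a known TOP mRNA, had a log2 fold change of -0.055 (adjusted p = 0.646, edgeR).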

How the data were processed

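RNA-seq libraries were made with oligo-dT beads from 2 vector and 2 shCHD7_2 samples of RKO cells. The authors deposited estimated counts per gene, and FPKM values that they had normalised for length and depth. The submitters' processing notes name Bowtie2, RSEM, DESeq2 and hg38, and the annotation and strandedness are not given in the sources used here. Estimated counts were rounded (13.6% to 14.7% of values per sample were not whole), filtered with filterByExpr, scaled by TMM and tested over 11955 genes with edgeR 4.0.16 (quasi-likelihood test, R 4.3.3) with Benjamini-Hochberg adjustment, and the biological coefficient of variation was 0.0579. The steps were tested on simulated data. Samples of a group differed by more than sampling noise (chi-square per gene 3.94 and 6.06), so none was treated as a library deposited again, and the replicates are those of the labels. Alternatives were DESeq2 1.42.0, limma 3.58.1 on log2(FPKM + 1) or log2(FPKM + 0.1) for genes at a mean FPKM of 1 or more, and on log2(FPKM + 1) for all genes, library totals, DESeq2's size factors, no filter, a replicate block and leaving out each sample. A crossed pairing and summed copies were added after seeing the data. Named genes were those with an adjusted p under 0.05, the members of paralogue groups and the member with the highest mean FPKM in each role, and other genes given with values were picked with their values in view. The members and lists were chosen with earlier results of these data known. Gene positions are those of GENCODE 29 (GRCh38), and starts those of RefSeq (GRCh38.p14), matched by symbol. Figures were drawn in Python 3.11.15 with matplotlib 3.10.9.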

Additional observations from a re-analysis of the deposited data

How the results depend on the processing

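The counts of factors passed as higher (3) and lower (5), the 0 factors at 1.5-fold, the median of -0.071 and the log2 fold change of CHD7 (-0.74) stayed the same, or within the spread, with DESeq2's size factors, DESeq2 and summed copies. In these fits 1394, 800 and 1386 genes passed in all, of 11955, 11955 and 11952 tested. With library totals, 5 factors passed as higher, 1 passed at 1.5-fold (EIF2B2) and the median was -0.027. Without a filter on low counts, 0 passed as higher and 0 as lower. On log2(FPKM + 1) and log2(FPKM + 0.1) in limma, 2 factors passed at 1.5-fold (EIF2B2 and EIF4E2) and the medians were -0.026 and -0.030. Without a filter on FPKM, 0 passed as higher and 0 as lower, and the median was -0.022. CHD7 was at -0.51 and no longer past the threshold (adjusted p = 0.104, limma). In this fit without a filter on FPKM, 24 of 15067 genes passed in all. Over the fits that each left out a sample, 4 to 5 factors passed as higher, 1 to 7 as lower and 1 to 3 at 1.5-fold, the median ran from -0.10 to -0.047, and CHD7 from -0.82 to -0.67. In these fits the arm with 1 sample was assumed to vary like the other. The number of all genes that passed also changed from fit to fit. The counts of factors therefore do not show a change particular to the factors. Without vector replicate 2, EIF4B, EIF3J, EIF3D and EIF1 lost their calls. EIF4G2 and EIF5A passed without shCHD7_2 replicate 1, EEF1G, EIF2S3 and EIF4G1 without shCHD7_2 replicate 2, and EEF1AKMT3 without vector replicate 1. EIF3CL, whose level is uncertain, passed in each of these fits, in opposite directions. EIF2B2, EIF4E2, EIF4EBP2 and EIF2A kept their calls in 12 of 14 alternatives, and lost them where no filter was applied.

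Across genes, the deviations of same-numbered samples had a correlation of -0.168. With 2 samples a group, this value cannot show whether the numbers mark a pairing, and the labels do not give one. With the replicate number as a block, 3 factors passed as higher and 3 as lower, EIF1 and EIF3D losing their calls, and the median was -0.073. These are 6 of 61 factors, beside 755 of 11955 genes in either direction. With the pairing crossed, chosen after seeing the data, 8 passed as higher and 18 as lower. These are 26 of 61 factors, beside 3751 of 11955 genes in either direction.

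Some factors near 0 changed sign, none of which passed in either fit. EEF2 (-0.019) was at 0.025 with library totals and at 0.024 in each of the limma fits on FPKM, and ran from -0.054 to 0.011 over the fits without a sample. Over those fits EIF6 ran from -0.13 to 0.032, EIF4G3 from -0.075 to 0.10, EIF4E from -0.014 to 0.12, EIF4E3 from -0.040 to 0.11, EIF1B from -0.11 to 0.014 and EIF5A2 from -0.31 to 0.035. The cause of these shifts was not tested. With 2 samples a group, differences of the size seen in most factors lie within the intervals given, and their absence is not shown.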
